A study of Arabidopsis thaliana with 9 samples.

Results

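Among the small RNA loci of Arabidopsis shoots, 22 of 29053 placed clusters differed from the iron-sufficient level in iron-deficient plants and in plants that had been given iron again for 24 hours, in the same direction in both. A placed cluster is a stretch of the genome to which ShortStack assigned small RNA reads. The 22 were selected by their own values, on the log2 normalized scale of the deposited table. The mean of -Fe and the mean of Fe resupply both had to differ from the mean of +Fe by at least 0.4 to the same side. All 6 -Fe and resupply libraries had to lie on one side of all 3 +Fe libraries, and the mean of the back-transformed values (2 to the power of the log2 value) over the 9 libraries had to be at least 10. Of the 18600 clusters above that minimum, 4 were higher in both conditions (0.0215%) and 18 were lower in both (0.0968%), and these are called the rises and the falls here. The differences from +Fe are therefore a description of how the clusters were selected and carry no test. Both differences are taken from the same 3 +Fe libraries.

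All libraries came from shoots of wild-type Col-0 plants grown for 14 days on diluted MS medium with iron. The +Fe plants were then moved to fresh medium with iron for 3 days and again for 24 hours, the -Fe plants to medium without iron for both periods, and the Fe resupply plants to medium without iron for 3 days and to medium with iron for 24 hours. The labels give 3 biological replicates for each condition, so 9 libraries were compared. The number of plants in a library is not given in the sources used here, and the labels also carry a protocol for soil-grown plants, so the plate treatment was taken as the one used. Shoots are a mixture of cell types, in which fewer cells of a type and less RNA per cell cannot be told apart.

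The depth of the libraries is unknown, because the table holds no read counts. Replicates correlated across features with Pearson coefficients between 0.994 and 0.996. Resupply replicate 2 had the lowest median (3.83, against 3.85 to 3.87 in the other libraries) and the lowest sum of back-transformed values. It was the resupply library nearest to +Fe at 12 of the 22 clusters, and the rule without it would have taken 18 rises and 68 falls, among them 4 of the 4 rises and 17 of the 18 falls described here. The rule would have taken 10 rises and 41 falls without +Fe replicate 2, 7 and 33 without +Fe replicate 1, and 7 rises without -Fe replicate 2. As a check of the tissue, all 8 shoot marker genes on a list (photosynthesis genes such as RBCS1A, CAB1 and RCA) had a cluster. The 6 root marker genes (IRT1, FRO2, FIT, NRT2.1, CASP1 and CASP2) had 0 clusters. The study names FRO2 among iron-related genes when it compares induced genes of shoots and roots, so this check is weak.

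Several of the genes named below belong to the exchange of iron and copper in antioxidant defence, and others to the use of copper elsewhere. Superoxide dismutases remove superoxide. FSD1 uses iron for this, whereas CSD1 and CSD2 use copper and zinc. The microRNA miR398 guides the cleavage of the mRNAs of CSD1, CSD2 and their copper chaperone CCS, and miR397, miR408 and miR857 guide the cleavage of mRNAs for other copper proteins, laccases and the plantacyanin ARPN. When copper is scarce, the transcription factor SPL7 binds GTAC motifs and activates these MIR genes and FSD1, and when copper is ample the CSD enzymes take over.

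The most abundant RNA of each of the 7 member clusters at a MIR gene is shown here, because these clusters include the largest differences. Each is 21 nt long and is printed 5′ to 3′ with the seed, bases 2 to 8, in capitals.
MIR398A, Cluster_5179: uGUGUUCUcaggucaccccua
MIR398B, Cluster_16649: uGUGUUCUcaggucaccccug
MIR398C, Cluster_16650: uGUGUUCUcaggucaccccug
MIR408, Cluster_9997: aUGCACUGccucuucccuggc
MIR397A, Cluster_1020: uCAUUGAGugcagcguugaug
MIR397B, Cluster_2965: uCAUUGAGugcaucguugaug
MIR857, Cluster_2964: uUUUGUAUguugaagguguau
The 3 miR398 clusters share one seed and the 2 miR397 clusters share another. In 6 of the 7 the RNA is identical to the mature sequence that the RefSeq annotation of TAIR10.1 gives for the gene. The RNA at MIR398A differs from it by U21A, counted from the 5′ end of the annotated miRNA, and has no exact match in the genome. It also differs from the RNA at MIR398B and MIR398C at base 21 alone. Those 2 clusters were more abundant, with mean back-transformed values of 14438 and 15924 against 1522 at MIR398A. Whether reads of Cluster_5179 arose at MIR398A or at those loci was not tested. The RNA at MIR398B and MIR398C is one sequence with 2 exact matches in the genome, so reads of these loci cannot be told apart by it.

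The clusters of miR398 and miR408 had the largest falls. Cluster_5179 lies at chr2:1040919-1041034 of TAIR10, the build of all cluster coordinates here, and overlaps MIR398A (AT2G03445). Its log2 normalized value was 11.59, 11.42 and 11.43 in the 3 +Fe libraries, 9.81, 10.04 and 9.82 in -Fe, and 9.12, 10.01 and 9.37 in resupply. All 6 libraries of the latter conditions lay more than 1 log2 unit below the lowest +Fe library, with a gap of 1.38. The means were 11.48 ± 0.10 (SD, n = 3) in +Fe, 9.89 ± 0.13 in -Fe and 9.50 ± 0.46 in resupply, that is 3.01-fold lower in -Fe and 3.95-fold lower in resupply than in +Fe on this scale.

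Cluster_16649, at chr5:4691008-4691895, overlaps MIR398B (AT5G14545) and the gene AT5G14550 on the opposite strand. It had log2 values of 14.77, 14.59 and 14.74 in +Fe, 13.16, 13.22 and 13.03 in -Fe, and 12.41, 13.45 and 12.63 in resupply. Cluster_16650 at MIR398C (AT5G14565), chr5:4694539-4694950, had 14.90, 14.70 and 14.87 in +Fe, 13.35, 13.40 and 13.21 in -Fe, and 12.59, 13.58 and 12.78 in resupply. At both loci the +Fe libraries stood apart from the other 6, and resupply replicate 2 was the highest library among these 6 while the other resupply libraries were the lowest. The level was 2.96-fold lower in -Fe and 3.65-fold lower in resupply than in +Fe at MIR398B, and 2.84-fold and 3.58-fold lower at MIR398C.

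MIR408 (AT2G47015) had a fall of similar size with less spread between resupply libraries. Cluster_9997, at chr2:19319693-19319965, had log2 values of 11.43, 11.60 and 11.60 in +Fe, 10.15, 9.99 and 9.96 in -Fe, and 9.59, 9.92 and 9.72 in resupply. The 3 resupply libraries were all below the 3 -Fe libraries, which were all below the +Fe libraries. The cluster also overlaps AT2G47020, whose transcript runs on the opposite strand. The means were 11.54 ± 0.10, 10.03 ± 0.10 and 9.74 ± 0.16 (SD, n = 3 each), or 2.85-fold lower in -Fe and 3.48-fold lower in resupply than in +Fe.

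The laccase-directed miRNAs were much less abundant and were also lower in both conditions. Cluster_2965 at MIR397B (AT4G13555), chr4:7878649-7878750, had 4.82, 5.08 and 5.17 in +Fe, 3.86, 3.82 and 3.71 in -Fe, and 3.89, 3.96 and 4.01 in resupply. Cluster_2964 at MIR857 (AT4G13554), chr4:7878195-7878232, had 4.18, 5.03 and 5.04 in +Fe, 3.86, 3.79 and 3.88 in -Fe, and 3.92, 3.77 and 3.83 in resupply. At MIR857 the spread lay within +Fe, where replicate 1 was near the level of the other conditions (SD 0.50, against 0.05 in -Fe and 0.08 in resupply). Cluster_1020, at chr4:2625960-2626292, overlaps MIR397A (AT4G05105) and the nucleoside transporter gene ENT6 (AT4G05110) on the opposite strand. It had 6.01, 5.94 and 6.31 in +Fe, 5.38, 5.74 and 5.35 in -Fe, and 5.30, 5.44 and 5.26 in resupply. For MIR397A the table also has a row of the miRNA alone, ath-MIR397a, and there the differences were larger than in the cluster, -1.28 in -Fe and -1.40 in resupply against -0.60 and -0.76.

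The table lists 326 miRNAs as rows of their own besides the clusters, and 7 of these met the same criteria. They were ath-MIR398a, ath-MIR398b, ath-MIR398c, ath-MIR408, ath-MIR397a, ath-MIR397b and ath-MIR857, the miRNAs of the 7 member clusters. They lie within those clusters and add no further evidence.

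FSD1, the iron superoxide dismutase gene (AT4G25100, bottom strand of chromosome 4), held 3 of the falls. Cluster_3948, at chr4:12884411-12884861, had log2 values of 4.89, 4.89 and 5.10 in +Fe, 3.75, 3.87 and 3.81 in -Fe, and 4.10, 4.08 and 3.93 in resupply. Cluster_3949, at chr4:12884955-12885414, had 3.99, 4.45 and 4.40 in +Fe, 3.44, 3.31 and 3.66 in -Fe, and 3.83, 3.49 and 3.36 in resupply. Cluster_3950, at chr4:12885489-12885680, had 4.88, 5.15 and 4.98 in +Fe, 4.01, 3.87 and 3.85 in -Fe, and 4.07, 4.01 and 4.10 in resupply. The 3 clusters follow each other from the middle to the end of the gene, and the value of resupply lay between those of -Fe and +Fe in the means of each. Another cluster nearer to the start of the gene, Cluster_3951, had a mean back-transformed value of 4.89, under the minimum, and differences of -0.36 and -0.33.

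The most abundant RNAs of the 3 FSD1 clusters differ from the miRNAs in length. They are 23, 17 and 24 nt long and match the sense strand of FSD1, in the exon outside the coding sequence for the first and in the coding sequence for the others.
Cluster_3948: aaauuucugaacaauuugacuuc
Cluster_3949: uugugcucggcucuuuc
Cluster_3950: aaacaaacucuggaguuucacugg
The table does not say how these RNAs were made, and sense fragments of an mRNA and processed small RNAs were not separated.

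CSD2 (AT2G28190, chr2:12014412-12016569), the plastid copper/zinc superoxide dismutase gene, held 2 of the 4 rises. Cluster_8881, at chr2:12016278-12016508, had log2 values of 3.24, 3.21 and 3.17 in +Fe, 3.77, 3.83 and 3.87 in -Fe, and 4.09, 3.33 and 4.12 in resupply. Cluster_8876, at chr2:12014377-12014841, had 3.14, 3.11 and 3.11 in +Fe, 3.76, 3.56 and 3.64 in -Fe, and 3.82, 3.46 and 3.81 in resupply. In both, resupply replicate 2 was the nearest to +Fe, and at Cluster_8881 it exceeded the highest +Fe library by 0.084. The differences from +Fe in -Fe and in resupply were 0.61 and 0.64 at Cluster_8881 and 0.53 and 0.57 at Cluster_8876, a rise of 1.44-fold to 1.56-fold.

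The CSD2 clusters lie at the ends of the gene, and 4 others lie between them, each under the minimum of 10. These 4, Cluster_8877 to Cluster_8880, had differences between 0.24 and 0.35 in -Fe and between 0.22 and 0.51 in resupply. The lead RNAs of the member clusters match the sense strand of CSD2.
Cluster_8876: gugcuuaaagguacuucugaug
Cluster_8881: cuguguugaucuugucuguuugaaca
The first lies in the coding sequence and the second in the exon past it. A search of CSD2 for the window that pairs best with the miR398 RNA of Cluster_5179, without gaps or bulges, gave chr2:12015572-12015592 in the coding sequence, with 14 of 21 bases paired and 13 in the next best window. It is printed from the CSD2 strand, with the paired bases in capitals.
CSD2 window: TgcGGGTGACCTGgGAAacat
The window lies 1161 bases from the gene start in Cluster_8878, which is not among the 22. With the RNA of Cluster_16649 the same CSD2 window paired 13 of 21 bases, against 12 in the next. The best window of CSD1 also paired 13, against 12, in an intron without a cluster. The search did not settle where miR398 pairs in CSD1 or CSD2, since the best and next best windows were close and introns were searched. In CCS the best window for that RNA paired 15 of 21 bases, against 12 in the next, and lies in the coding sequence within Cluster_22948.

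**Figure D1:**
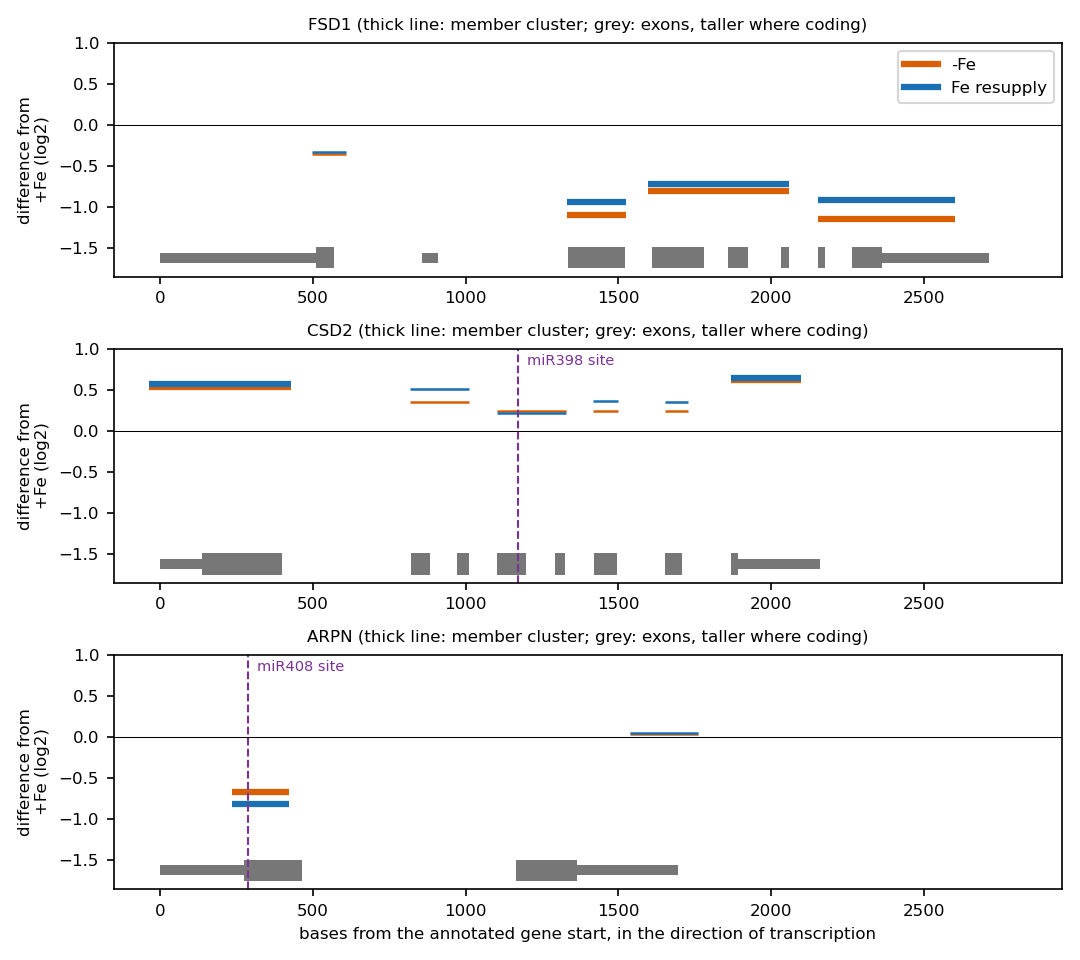
Difference from +Fe (log2, vertical axis) of each cluster at FSD1, CSD2 and ARPN against its position in bases from the annotated gene start, orange for -Fe and blue for Fe resupply. Thick lines are member clusters, thin lines other clusters and grey boxes exons (taller where coding). Dashed lines, labelled as sites, mark the window that pairs best with miR398 or miR408. All FSD1 clusters lie below 0, all CSD2 clusters above 0, and at ARPN the cluster at the miR408 window lies below 0 while the other lies at 0.04 and 0.05.

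The cluster at ARPN, the plantacyanin gene (AT2G02850, bottom strand of chromosome 2), was led by an RNA close to miR408. Cluster_5119, at chr2:827571-827758, had log2 values of 3.76, 3.98 and 3.86 in +Fe, 3.06, 3.21 and 3.32 in -Fe, and 3.20, 2.99 and 2.97 in resupply. All 6 values of the latter conditions were under the lowest +Fe value. The differences from +Fe were -0.67 in -Fe and -0.82 in resupply. The lead RNA, 19 nt long, is shown with the bases it shares with the miR408 RNA of Cluster_9997 in capitals, followed by the ARPN window that pairs best with that RNA, with its paired bases in capitals.
Cluster_5119: UGCACUGCCUCUUCCCUuu
ARPN window: cCaAGGGAAGAGGCAGTGCAT
The RNA starts at base 2 of miR408 and is identical to it at 17 of 19 positions, the changes being G19U and G20U counted from the 5′ end of miR408. It has 0 exact matches in the genome and differs from the strand opposite ARPN by U19G, counted along the RNA. The window, at chr2:827696-827716 in the coding sequence, pairs with 19 of the 21 bases of miR408, against 11 in the next best window of the gene. The table does not tell whether reads of this cluster arose at ARPN or at MIR408. The other ARPN cluster, Cluster_5118, had differences of 0.04 in -Fe and 0.05 in resupply.

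The other 2 rises were at BT1 and at an unannotated site. BT1 (AT5G63160) encodes a scaffold protein with BTB and TAZ domains. Cluster_21955, at chr5:25332904-25334729, had log2 values of 6.09, 6.30 and 5.97 in +Fe, 6.79, 6.49 and 6.78 in -Fe, and 6.66, 6.50 and 6.57 in resupply. Cluster_24675, at chr1:12561459-12562543, had 4.67, 4.71 and 4.68 in +Fe, 5.37, 5.03 and 5.29 in -Fe, and 5.16, 4.95 and 5.34 in resupply. It overlaps no gene of the annotation, the nearest being AT1G34392 at 144 bases. In both clusters -Fe replicate 2 and resupply replicate 2 were the lowest of their conditions.

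Of the remaining 7 falls, 4 overlap no annotated gene. Cluster_8659, at chr2:11010799-11011120 and 938 bases from AT2G25800, had the largest difference of these. Its log2 values were 5.47, 5.32 and 5.86 in +Fe, 4.33, 3.89 and 4.48 in -Fe, and 4.40, 4.18 and 5.06 in resupply. The spread between its replicates was wide in each condition (SD 0.28, 0.30 and 0.46). Cluster_14360 (chr3:16238346-16238494) had 5.65, 5.51 and 5.46 in +Fe, 4.99, 4.94 and 4.89 in -Fe, and 4.97, 4.72 and 5.24 in resupply. Cluster_3248 (chr4:9163398-9163780) had 5.75, 5.79 and 6.13 in +Fe, 4.84, 5.51 and 4.88 in -Fe, and 5.04, 5.67 and 5.44 in resupply. Cluster_17538 (chr5:9114793-9115295) had 4.34, 4.43 and 4.52 in +Fe, 3.53, 3.76 and 3.54 in -Fe, and 3.95, 3.71 and 4.20 in resupply. In the last 2 clusters, one or more resupply libraries came within 0.14 of the lowest +Fe library.

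The lead RNA is 23 nt long at the first of these sites and 24 nt long at the others, the length of the RNAs that guide DNA methylation in plants.
Cluster_8659: gaacggcucugcauuuagacaua
Cluster_14360: guugacugcagugacaucuggguu
Cluster_3248: aucucggaacaaggccuuaugacg
Cluster_17538: augagauaacuuugaacgaugaca
Only the RNA of Cluster_8659 lacks an exact match in its own cluster, where the nearest stretch differs by A23G, counted along the RNA.

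The other 3 falls were small and lie in protein-coding genes. Cluster_3063 at ACD6 (AT4G14400), a membrane protein with ankyrin repeats that acts in defence, is at chr4:8297113-8298517. It had log2 values of 4.16, 3.84 and 4.28 in +Fe, 3.58, 3.68 and 3.56 in -Fe, and 3.47, 3.54 and 3.54 in resupply. Cluster_23415 at AT1G19960, chr1:6928033-6928465, had 3.97, 3.48 and 3.99 in +Fe, 3.42, 3.29 and 3.40 in -Fe, and 3.28, 3.48 and 3.39 in resupply, and its nearest libraries on the 2 sides were only 0.0065 apart. Cluster_9918 at AT2G45540, chr2:18764740-18765099, had 5.42, 5.20 and 5.26 in +Fe, 4.88, 4.92 and 4.83 in -Fe, and 5.09, 4.72 and 4.65 in resupply. Their differences from +Fe lay between -0.57 and -0.42, close to the limit of 0.4. The lead RNAs of Cluster_3063 and Cluster_9918 are 17 nt long. That of Cluster_9918 has 0 exact matches in the genome, and the nearest stretch of the cluster differs by U4G, counted along the RNA. Whether its reads arose at AT2G45540 was not tested.

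**Figure D2:**
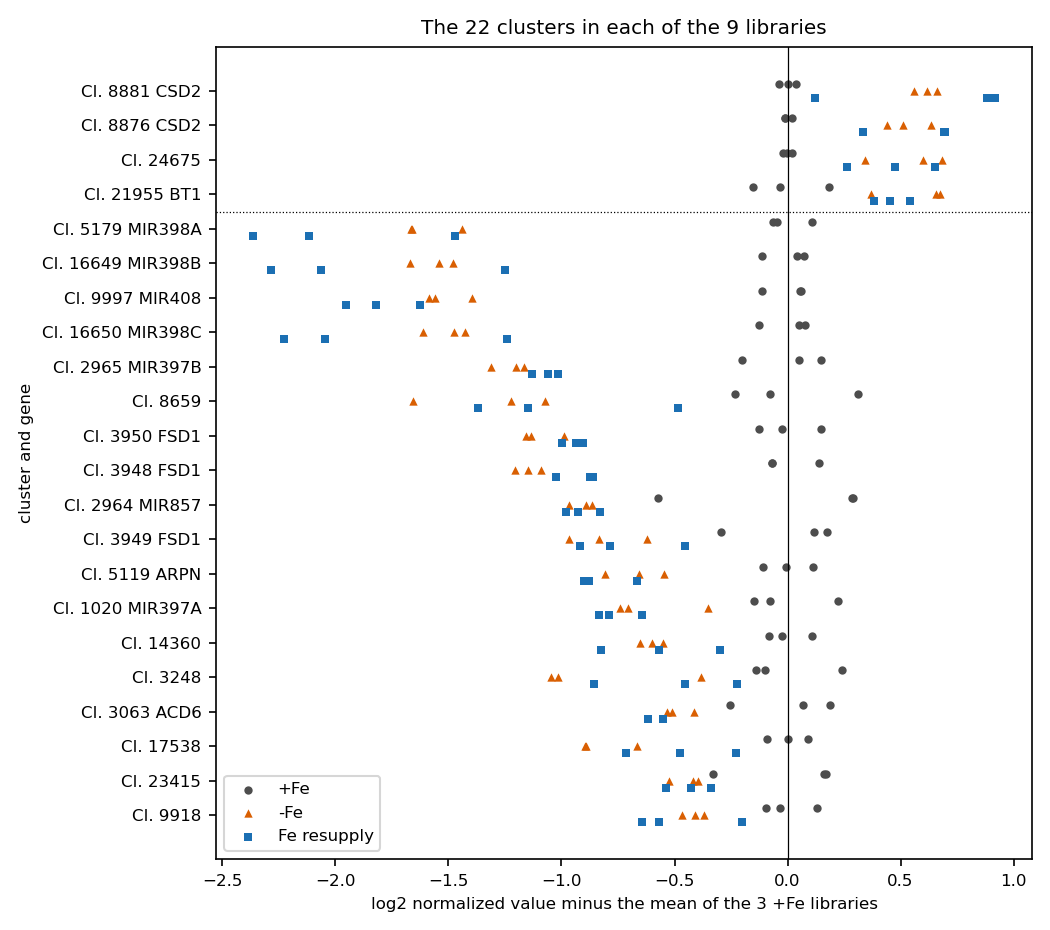
Log2 normalized value of the 22 clusters in each of the 9 libraries, minus the mean of the 3 +Fe libraries of that cluster (horizontal axis), with one row per cluster and one point per library (grey circles +Fe, orange triangles -Fe, blue squares Fe resupply). The 4 rises are above the dotted line. The miR398 and MIR408 clusters lie more than 1 log2 unit below 0 in all 6 -Fe and resupply libraries, and resupply replicates of miR398 are spread with SDs of 0.46 to 0.55.

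Just inside the limit of 0.4 on the smaller of the 2 differences were BT1 (0.57 in -Fe and 0.46 in resupply), Cluster_24675 (0.54 and 0.46) and Cluster_8876 at CSD2 among the rises. Just outside it were Cluster_21055 at BXL1 (0.39977 and 0.41), Cluster_14843 at BT2, a relative of BT1 (0.40 and 0.36), and Cluster_28872 at the nitrate reductase gene NIA1 (0.36 and 0.38). The falls nearest to the limit were Cluster_9918 (-0.42 and -0.47), Cluster_23415 (-0.45 and -0.43) and Cluster_17538 (-0.82 and -0.47) inside, and Cluster_27937 at AT1G64035 (-0.56 and -0.39), Cluster_3062 at ACD6 (-0.38 and -0.35) and Cluster_20545 at ARD4 (-0.33 and -0.40) outside. Cluster_3062 and the member Cluster_3063 thus lie in one gene on the 2 sides of the limit. Without the condition on single libraries there would be 6 rises and 61 falls.

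**Figure D3:**
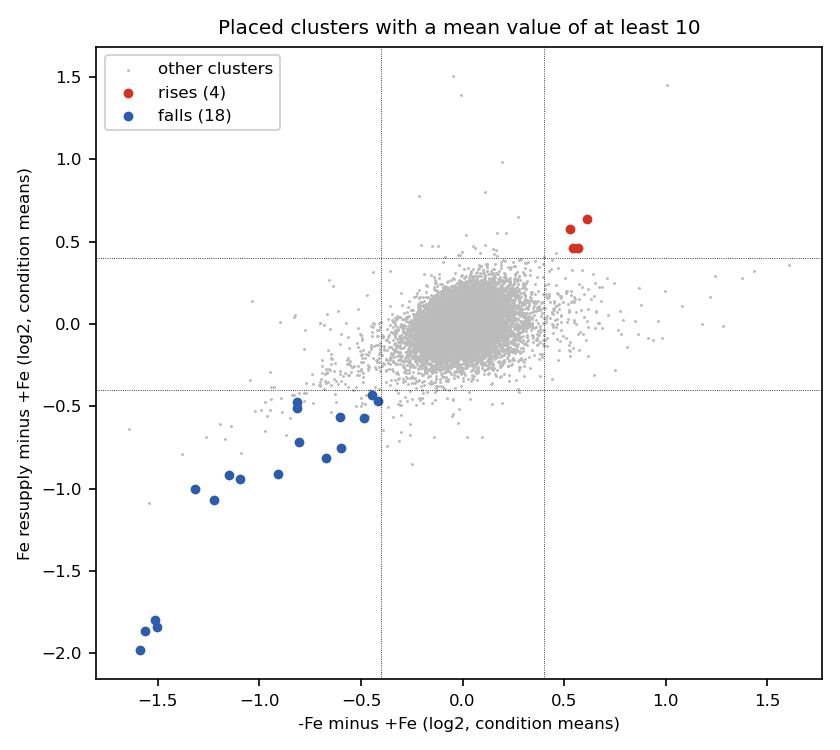
Mean of -Fe minus mean of +Fe (horizontal axis, log2) against mean of Fe resupply minus mean of +Fe (vertical axis, log2) for the 18600 placed clusters whose back-transformed values averaged 10 or more. Red points are the 4 rises and blue points the 18 falls, dotted lines mark 0.4 to either side, and grey points beyond both lines failed the condition on single libraries. The 4 clusters of miR398 and miR408 lie at the lower left, no lower than -1.59 in -Fe and between -1.98 and -1.80 in resupply.

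The difference between -Fe and resupply is described next, and the selection limits it. A cluster that came back to within 0.4 of +Fe was not taken, so a return could reach at most 0.13 to 0.21 at the 4 rises and 0.02 to 1.19 at the 18 falls. In limma's fit over all 33159 features with varying values, a call needed an adjusted p under 0.1 and a log2 difference of at least 0.5. For 13 of the 22 clusters, whose -Fe difference was under 0.9 in size, a return of that size would have taken them out of the set. That 0 of the 22 passed, with 0.528% of all features (0.0513% higher and 0.476% lower in resupply), is therefore no result about their return. A difference farther from +Fe was not limited. At an unadjusted p under 0.05 there were 5 of the 22, all of them falls, with 11.0% of all features. The 3 resupply libraries lay above the 3 -Fe libraries at 2 of the 18 falls (7.27% of all features) and below them at another 2 (8.7%), and in the 4 rises they overlapped. The median difference was -0.03 for the rises and 0.00 for the falls.

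The miR398 and miR408 clusters lay lower still in resupply than in -Fe, by differences that did not pass with all libraries. At MIR398A the difference between resupply and -Fe was -0.39 (standard error 0.15, 95% interval -0.71 to -0.08, adjusted p = 0.316 from limma). It was -0.30 at MIR398B (-0.64 to 0.03), -0.33 at MIR398C (-0.66 to -0.01) and -0.29 at MIR408 (-0.49 to -0.08). These values depended on single resupply libraries. Without resupply replicate 1 the differences were -0.20 at MIR398A, -0.09 at MIR398B and -0.14 at MIR398C (adjusted p from limma of 0.568, 0.839 and 0.737). Without resupply replicate 2 the 3 miR398 clusters passed, with differences of -0.65 at MIR398A, -0.61 at MIR398B and -0.63 at MIR398C. Their adjusted p from limma was 0.0056, 0.0027 and 0.0023, whereas MIR408 had -0.37 with an adjusted p of 0.144. No other cluster of the 22 passed without replicate 2. Of all features 119 passed in that fit, against 175 with all libraries. The lead RNA is the same at MIR398B and MIR398C, and whether reads of the MIR398A cluster arose there was not tested. The 3 miR398 clusters are therefore not separate counts.

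The FSD1 clusters and MIR397B lay on the other side, slightly nearer to +Fe in resupply. The difference between resupply and -Fe was 0.23 at Cluster_3948 (95% interval 0.03 to 0.43), 0.09 at Cluster_3949 (-0.18 to 0.36), 0.15 at Cluster_3950 (-0.05 to 0.35) and 0.16 at MIR397B (-0.05 to 0.37). MIR397A, of the same family as MIR397B, differed the other way, by -0.16 (-0.40 to 0.09), as did ARPN, by -0.15 (-0.35 to 0.06). The largest return was at Cluster_17538, with 0.34 (0.11 to 0.58). Cluster_8659 had 0.32 (-0.06 to 0.69) and Cluster_3248 had 0.30 (-0.03 to 0.64), both larger than at FSD1. At CSD2 the differences were 0.03 (-0.27 to 0.32) and 0.05 (-0.16 to 0.26), and at MIR857 the difference was -0.00 (-0.33 to 0.32). Of the 18 falls, 9 were farther from +Fe in resupply than in -Fe and 9 were nearer, and of the 4 rises 2 were farther and 2 nearer.

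Some clusters at genes that regulate the iron deficiency response were lower in resupply than in -Fe in the same fit. A list of 16 such genes, with the transcription factors bHLH38, bHLH39 and bHLH100, the ubiquitin ligase BTS and the IMA peptides, had 23 clusters at 10 genes. It was chosen with earlier results of these data known, so counts from it are not independent. Of the 23 clusters, 10 were higher and 0 lower in -Fe than in +Fe (0.268% and 0.235% of all features). In resupply against +Fe 0 passed (0.0332% higher and 0.0935% lower among all features). In resupply against -Fe 9 were lower and 0 higher (0.476% and 0.0513% of all features). The 9 lie at bHLH38, bHLH39, bHLH100, BTS and IMA3. Several of them are pieces of one gene, BTS, so the clusters are not separate counts of genes. Clusters of this list were not held to the minimum of 10 on the mean back-transformed value. Cluster_15483 at bHLH38 had a mean of 7.63, with an SD of 0.57 in -Fe against 0.02 in +Fe. Cluster_9082 at IMA3 and Cluster_11125 at BTS had means of 39.74 and 39.12. At IMA3, Cluster_9082 had means of 5.07 in +Fe, 5.81 in -Fe and 4.79 in resupply, a difference between resupply and -Fe of -1.03 (95% interval -1.35 to -0.70). At BTS, Cluster_11125 had 4.86, 5.82 and 4.87, with a difference of -0.95 (-1.31 to -0.58). The clusters of bHLH101, ILR3, bHLH104, IMA1 and IMA2 did not pass in any of the 3 comparisons. In resupply against -Fe, IMA1 (-0.495, adjusted p = 0.047 from limma) and IMA2 (-0.478, adjusted p = 0.073) missed only the limit of 0.5 on the size. Their mean back-transformed values were low, 4.69 and 5.13. At Cluster_16096 of bHLH101 the differences ran the other way, -0.15 in -Fe against +Fe and 0.22 in resupply against -Fe. The list has 0 of the 22 clusters.

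**Figure D4:**
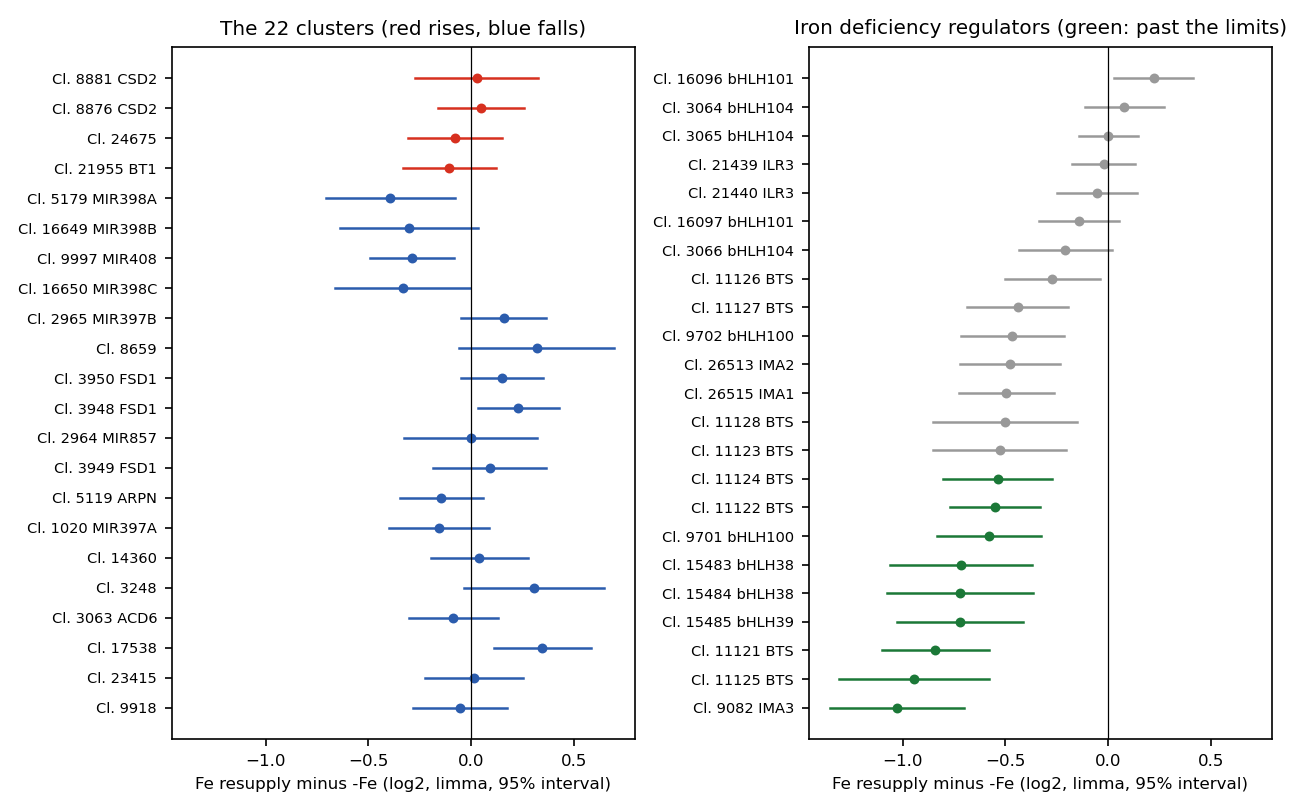
Fe resupply minus -Fe (log2, limma's fit over all features) as points with 95% intervals, for the 22 clusters on the left (red rises, blue falls) and for the 23 clusters at iron deficiency regulator genes on the right (green where the limits were passed). The 22 points lie between -0.39 and 0.34, a range that the selection limits on the side of a return. Of the 23 regulator clusters, 9 passed (0.528% of all features passed) and lie between -1.03 and -0.54.

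Copper-related genes were listed when results of these data were known, so the share of the 22 clusters at them was not independent. The list, 23 genes of copper and superoxide metabolism, has 28 clusters at 17 genes. Of the 22 members, 13 are among these 28, at 10 genes. In limma's fit 2 of the 28 were higher and 11 lower in -Fe than in +Fe (0.268% and 0.235% of all features). In resupply against +Fe, 1 was higher and 11 lower (0.0332% and 0.0935%). All of these were members, whose selection used these comparisons. In resupply against -Fe, 0 of the 28 passed. The median differences of the 28, 0.02 in -Fe and -0.07 in resupply, lie between 13 clusters below and 15 above 0 in -Fe and 16 below and 12 above 0 in resupply (the medians of all features were -0.00 in both). The 15 clusters of the list outside the members differed by -0.36 to 0.45 in -Fe and by -0.33 to 0.51 in resupply. The iron transport and storage list (12 genes, 23 clusters) and the plastid iron protein list (7 genes, 7 clusters) had 0 members. The lists of genes whose shoot mRNA was higher or lower under iron deficiency, chosen within the same study and so no independent evidence of a direction, have 130 and 59 clusters, of which 3 and 7 are members.

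CSD1, the cytosolic copper/zinc superoxide dismutase, had 3 clusters. Its Cluster_22713 had 2.46 ± 0.01 in +Fe, 2.91 ± 0.07 in -Fe and 2.80 ± 0.08 in resupply (SD, n = 3 each), with differences of 0.45 (adjusted p = 0.0055 from limma) and 0.34 (adjusted p = 0.124), so that in -Fe it missed only the limit of 0.5 on the size, at a low value where differences may be understated. Its other clusters had differences of 0.24 to 0.34 in -Fe and 0.15 to 0.39 in resupply. At the chaperone CCS, Cluster_22948 differed by 0.25 and 0.02, and at FSD2, a plastid iron superoxide dismutase, Cluster_21206 differed by 0.00 and -0.03. The plastocyanin genes PETE1 and PETE2, which code for the copper protein of the photosynthetic electron chain, had differences between -0.11 and 0.14. SPL7 had no cluster.

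The 22 clusters differed from other clusters in the length of the lead RNA, which the rule did not use. Their lead RNA was 21 nt long in 7 (31.8%), which are the 7 at MIR genes, and 24 nt long in 5 (22.7%). Among the 18600 clusters over the minimum, 4.99% were led by an RNA of 21 nt and 56.0% by one of 24 nt. Of the 22, 17 overlap a gene and 5 do not, and this share was not counted among other clusters. In 18 of the 22 the lead RNA occurs exactly within the cluster on TAIR10.1, as it does in 91.3% of all nuclear clusters. These shares are descriptions, since several clusters belong to one gene or family.

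GTAC, the core of the element bound by SPL7, was counted in the 500 bases before each annotated gene start, where a match on one strand is also a match on the other. Among 37897 nuclear genes 42.9% had none and 2.1% had at least 4. MIR408 had 10 matches (at least as many in 0.0449% of genes), MIR398C 8 (0.0844%), MIR398B 7 (0.135%), and MIR397A and MIR397B 6 each (0.248%). MIR857, ARPN and AT2G47020 had 4. Of the 7 MIR genes at members, 6 thus had at least 4, against 11 of all 326 annotated MIR genes (3.37%), a number that includes the 6. The 4 matches of MIR857 are all counted for MIR397B as well, so these genes are not separate counts. FSD1 had 1, and CSD2, MIR398A, BT1, ACD6, ENT6, AT1G19960 and AT2G45540 had 0. The counts are descriptive and no binding was measured.

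For 4 of these genes the stretch of 30 bases with the most GTAC is shown, with GTAC in capitals, on the strand of the gene. They are MIR408 at chr2:19319434-19319463, MIR397A at chr4:2625807-2625836, MIR397B at chr4:7878862-7878891 and MIR398C at chr5:4694389-4694418.
MIR408: GTACcgGTACtggaaagagaattgcGTACt
MIR397A: GTACacaGTACaaacaacaagcattGTACt
MIR397B: GTACacagtaGTACaagcaagcattGTACt
MIR398C: GTACtactgtcagagaaGTACaatgttgat
The stretch of MIR397B is also in the window of MIR857, since the 2 genes follow each other on one strand. In the same way, 7 matches are in the window of AT5G14550, which overlaps that of MIR398C on the other strand. The annotations of MIR397A, MIR397B and the 3 MIR398 genes span little more than the hairpin, so none of their windows need be a promoter.

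**Figure D5:**
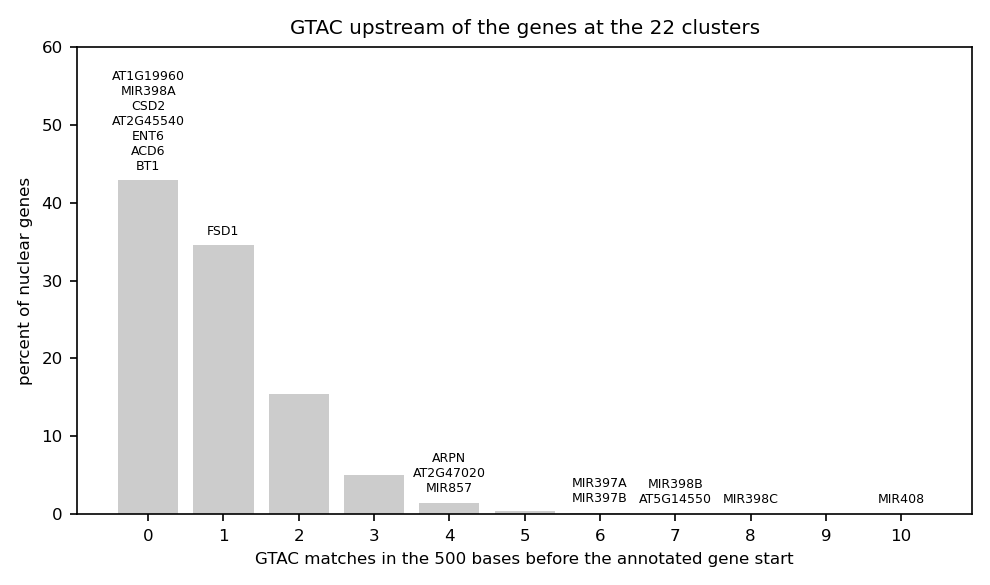
Percent of 37897 nuclear genes (bars, vertical axis) by the number of GTAC matches in the 500 bases before the annotated gene start (horizontal axis), with the genes at the 22 clusters written above the bar of their number. MIR408 stands at 10, MIR398C at 8, MIR398B and AT5G14550 at 7 and both MIR397 genes at 6, while CSD2, MIR398A and BT1 stand at 0.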

How the data were processed

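Small RNA-seq of Col-0 shoots was measured in 3 conditions with 3 replicates each, and the 9 columns were given to samples by their headers. The authors trimmed reads with Cutadapt and aligned and quantified loci with ShortStack, and the processing notes name DESeq2 and TAIR10. The values used are the log2 normalized values that the authors deposited. Their transformation is not named, and they range from -2.15 to 21.61 with the form of a regularized logarithm, so differences of low features may be understated. The depth is unknown, and no counting interval was computed. Because the values are not counts, limma 3.58.1 (R 4.3.3) was used for the comparison across all features, in one fit over 9 libraries with a mean-variance trend, and p-values were adjusted by Benjamini-Hochberg over 33159 features. Another 12, constant over the libraries, were not tested. The limits were an adjusted p under 0.1 and a log2 difference of at least 0.5, and intervals are 95%. The step was tested on simulated data. If replicates were not grown separately, the p-values do not cover the spread between separate growths. If the libraries of a condition came from the same plants, the p-values measure technical spread.

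The member rule is given with the results. The clusters and the gene lists were chosen with earlier results of these data known. The rule for names took members at genes of the lists, the 10 rises and 10 falls with the largest differences, the 3 clusters on each side of the limit in each direction, and the miRNA row of a member gene, and the remaining members, the contrasting IMA3 and BTS clusters and some other list genes were named to account for every member or after their values were seen. Of 28897 nuclear clusters, 26376 (91.3%) hold their lead RNA exactly in TAIR10.1, whose RefSeq annotation served for genes. Overlap by 1 base or more assigned a cluster to a gene. Pairing was counted over windows of the miRNA's length in the unspliced gene. The same replicate numbers occur in each condition, and deviations of same-numbered replicates correlated between -0.080 and 0.116, so replicates were not paired. Alternatives were other limits and minimums, an added constant of 1, median centring, quantile normalization, eBayes without trend, fits of 2 conditions, a block for the replicate number, and leaving out single libraries. Python 3.11.15, numpy 2.4.6, pandas 2.3.3, scipy 1.17.1 and matplotlib 3.10.9 served for the other steps.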

Additional observations from a re-analysis of the deposited data

How the results depend on the processing

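The number of rises was 12 with a limit of 0.3 on the differences, 2 with 0.5 and 1 with a minimum of 50 on the mean back-transformed value, and the number of falls was 5 with that minimum and 61 without the condition on single libraries. Leaving out 1 library gave 3 to 18 rises and 17 to 68 falls, with the highest counts without resupply replicate 2. With only features of at least 50, the features passing numbered 37 in -Fe against +Fe, 13 in resupply against +Fe and 99 in resupply against -Fe. Leaving out 1 library gave 121 to 236, 26 to 122 and 97 to 375 in that order, and 0 to 3 of the 22 clusters in resupply against -Fe. Resupply against +Fe had 122 without resupply replicate 1, 76 without resupply replicate 2, 65 without +Fe replicate 2 and 26 without +Fe replicate 3, and resupply against -Fe had 375 without resupply replicate 1 and 97 without -Fe replicate 3. The replicate number as a block, although the replicates were not paired, gave 75 features in resupply against +Fe and 0 of the 22 clusters in resupply against -Fe. The difference between resupply and -Fe at MIR857, near 0, was 0.013 after median centring and 0.011 after quantile normalization. Without 1 library the sign also changed for MIR857 (-0.045 to 0.031), Cluster_3949 (-0.045 to 0.19), Cluster_8876 (-0.016 to 0.17), Cluster_8881 (-0.11 to 0.29), Cluster_9918 (-0.19 to 0.031), Cluster_14360 (-0.095 to 0.17), Cluster_23415 (-0.036 to 0.064) and Cluster_24675 (-0.18 to 0.021), none of which passed.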

Other observations

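Of the 3792 sequences that the table lists without a position, 3 met the same criteria as the clusters, and 0 of the 3 has an exact match in TAIR10.1. The 20 nt and 21 nt sequences below are close to miR398, and the 28 nt sequence was higher in both conditions.
20 nt: uguguucucaggucacccug
21 nt: uguguucucaggucaccccca
28 nt: gucuguaguccaacgguaggauaauugu
The 20 nt sequence had log2 values of 4.16, 4.01 and 4.01 in +Fe, 3.43, 3.40 and 3.40 in -Fe, and 3.20, 3.52 and 3.12 in resupply. The 21 nt sequence had 4.32, 3.82 and 3.96 in +Fe, 3.25, 3.23 and 3.29 in -Fe, and 3.14, 3.43 and 3.10 in resupply. In both, resupply replicate 2 was the highest of the 6 libraries outside +Fe, as it was at the clusters of MIR398B and MIR398C. The 28 nt sequence had 4.23, 3.97 and 4.01 in +Fe, 4.66, 4.27 and 4.61 in -Fe, and 4.56, 4.62 and 4.84 in resupply.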
